A study of Mus musculus with 10 samples.

Results

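The genes described here are 10 thermogenic and beige adipocyte genes, Ucp1, Dio2, Elovl3, Otop1, Ppargc1a, Ppargc1b, Prdm16, Cox7a1, Cox8b and Cpt1b, taken by symbol from the 52636 gene identifiers of a counts table from mouse inguinal white adipose tissue, the subcutaneous fat depot of the groin. All 10 were found, and 9 had enough counts to be tested. All mice were C57BL/6, 6 months old and fed a 65% high-fat diet, and the labels give 16 weeks (diet), 12 weeks (description) and 4 months (treatment) for how long they ate it. The 5 control libraries carried floxed Tcf7l2 alleles (TCF7L2F/F) with no Cre, although their genotype label reads wild type, and the 5 knockout libraries carried the same floxed alleles and the Adp-Cre transgene, whose promoter the labels do not spell out. Whole tissue was sequenced, so cells in which that Cre is not active also contribute, and no label states that every library is its own mouse. The p-values then speak of the spread between libraries, which may be technical in part.

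Brown and beige fat cells burn fuel to make heat. Noradrenaline from sympathetic nerves acts through beta-adrenergic receptors and cyclic AMP to release fatty acids and to raise transcription of a thermogenic programme, and UCP1 then lets protons leak back across the inner mitochondrial membrane so that respiration runs without making ATP. Inguinal fat of mice is the classic site of beiging, in which such cells appear among white adipocytes in the cold, and the programme is usually low in warm or obese animals. The product of Tcf7l2 binds DNA at the end of the canonical Wnt pathway, where beta-catenin joins it.

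Values per library are CPM, reads of a gene relative to its library's TMM-scaled total, a level that is comparable between libraries. A gene is said to have risen or fallen where the quasi-likelihood test of edgeR gave an adjusted p below 0.05 over all 15927 tested genes, and changes are knockout relative to control on the log2 scale. By that rule 12.9% of all tested genes changed, 5.73% higher and 7.14% lower in the knockout. Total counts ran from 14032866 to 17782073 per library, where 3 counts correspond to 0.172 to 0.205 CPM. Tcf7l2 itself, the deleted gene, lay between 9.16 and 11.4 CPM in the controls and between 5.57 and 6.20 CPM in the knockouts (log2 change -0.87, SE 0.098, adjusted p = 3.3e-04), so all libraries followed their labels.

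Of the 9 tested members, 3 rose in the knockout, 0 fell and 6 did not pass, against 5.73% higher and 7.14% lower over all tested genes. The members were chosen with earlier results of these data known, so that contrast is a description and no independent test. The genes that rose were Dio2, whose deiodinase turns the prohormone thyroxine into active thyroid hormone inside the cell, Elovl3, an elongase of very long chain fatty acids that is typical of brown fat, and Otop1, a proton channel. In these 3 genes the lowest knockout library stood above the highest control library, which was so for 4.55% of all tested genes, and the reverse order, seen in 4.45% of all tested genes, occurred in 0 members. Ucp1, the regulators Ppargc1a, Ppargc1b and Prdm16, and the respiratory chain genes Cox7a1 and Cox8b did not pass, and 5 members had an unadjusted p below 0.05 (30.6% of all tested genes). The median log2 fold change of the 9 was 0.06, beside 0.00018 over all tested genes.

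Promoter sequences of RefSeq on GRCm38.p6, the 250 bases upstream of the annotated start, were used for 7 of the 10 members. Those of Dio2, which rose, and of Ucp1 and Ppargc1a, classic cyclic AMP targets that did not pass, are shown for comparison, 5′ to 3′, with capitals for every match to the motifs named afterwards.
Dio2 (chr12:90739039-90739288, minus strand): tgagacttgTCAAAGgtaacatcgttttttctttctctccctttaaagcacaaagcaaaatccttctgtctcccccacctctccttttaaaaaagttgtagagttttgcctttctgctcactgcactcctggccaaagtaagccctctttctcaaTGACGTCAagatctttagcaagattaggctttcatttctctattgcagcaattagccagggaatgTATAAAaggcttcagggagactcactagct
Ucp1 (chr8:83290098-83290347, plus strand): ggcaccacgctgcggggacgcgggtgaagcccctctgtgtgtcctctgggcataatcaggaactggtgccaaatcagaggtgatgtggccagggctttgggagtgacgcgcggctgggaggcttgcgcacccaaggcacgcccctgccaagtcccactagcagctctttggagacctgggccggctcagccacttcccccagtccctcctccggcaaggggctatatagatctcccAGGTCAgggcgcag
Ppargc1a (chr5:51567726-51567975, minus strand): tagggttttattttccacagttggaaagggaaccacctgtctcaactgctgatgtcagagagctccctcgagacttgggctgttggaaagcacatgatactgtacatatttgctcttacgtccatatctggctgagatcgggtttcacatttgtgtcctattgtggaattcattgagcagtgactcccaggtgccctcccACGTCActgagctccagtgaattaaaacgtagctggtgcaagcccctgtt
Both strands were searched for the cyclic AMP response element TGACGTCA, its shorter core TGACGT (which the full element contains), the TCF/LEF core TCAAAG, the TATA sequence TATAAA and the nuclear receptor core AGGTCA. The Dio2 window held the full cyclic AMP element at -95 to -88 from the RefSeq start, TCAAAG at -241 to -236 and TATAAA at -30 to -25. Among all 32851 windows of this length, 1.55% held TGACGTCA, 6.47% TGACGT, 13.8% TCAAAG, 12.4% TATAAA and 14.02% AGGTCA. The Ucp1 window held AGGTCA at -14 to -9, and that of Ppargc1a held the core TGACGT on the reverse strand at -50 to -45. No match to these letters was found in the windows of Otop1, Prdm16, Cox7a1 and Cox8b. A match describes the letters only, and the RefSeq start of Dio2 lies 600 bases upstream of the GENCODE gene start and that of Otop1 1432 bases inside the GENCODE gene.

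Dio2 (ENSMUSG00000007682, GRCm38, chromosome 12, 90724552 to 90738438, minus strand, protein-coding) stood at 3.33, 4.52, 3.44, 3.99 and 3.16 CPM in control 1 to 5. In knockout 1 to 5 it stood at 10.6, 20.2, 12.6, 9.42 and 20.3 CPM. Knockouts 2 and 5 were about as high as each other and well above the other 3 knockouts, and the groups were far apart. The mean rose from 3.69 ± 0.557 to 14.6 ± 5.27 CPM (SD, n = 5 each), a 3.96-fold rise (log2 change 1.99, SE 0.23, edgeR adjusted p = 6.9e-04).

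Elovl3 (ENSMUSG00000038754, chromosome 19, 46131897 to 46135694, plus strand, protein-coding) was measured at 2.74, 2.93, 1.84, 1.96 and 1.58 CPM in control 1 to 5. Its knockout values were 4.94, 19.6, 7.98, 5.38 and 14.9 CPM. Knockouts 2 and 5 again stood highest, and, relative to its mean, the spread among knockouts was wider than in Dio2 or Otop1. The mean went from 2.21 ± 0.588 to 10.6 ± 6.44 CPM, a 4.76-fold rise (log2 change 2.25, SE 0.42, adjusted p = 0.013).

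Otop1 (ENSMUSG00000051596, chromosome 5, 38275972 to 38304217, plus strand, protein-coding) had 33.8, 25.8, 33.5, 28.7 and 30.3 CPM in control 1 to 5. It had 45.4, 59.8, 54.8, 46.5 and 62.2 CPM in knockout 1 to 5. The rise was smaller than in Dio2 and Elovl3 but the groups were tighter relative to their means, 30.4 ± 3.38 against 53.7 ± 7.57 CPM, or 1.77-fold (log2 change 0.82, SE 0.10, adjusted p = 6.9e-04). All 3 genes kept their call whichever single library was left out, with adjusted p at most 0.0031 for Otop1, 0.0045 for Dio2 and 0.038 for Elovl3. The share of all tested genes called higher moved far more between those fits: 1.65%, 1.68%, 4.65%, 2.74% and 8.45% without control 1 to 5 in turn, and 7.23%, 2.76%, 4.18%, 5.04% and 2.62% without knockout 1 to 5. The same 3 members were also the higher ones by DESeq2 (3.48% of all tested genes higher), limma-voom (4.8%), with DESeq2 size factors (5.81%), without TMM (4.33%), with no filter (4.0%) and without robust dispersions (5.84%). The shares for DESeq2 and for no filter are of the larger set of genes with any count. For DESeq2 that set includes genes, such as Cpt1b, that received no adjusted p and could not be called.

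Ucp1 (ENSMUSG00000031710, chromosome 8, 83290352 to 83298452, plus strand, protein-coding) was low throughout, with 14 to 146 counts per library. Its controls held 2.08, 1.85, 4.55, 0.946 and 2.64 CPM and its knockouts 1.26, 8.88, 3.69, 5.77 and 3.63 CPM. Control 3 stood above 3 of the 5 knockouts and knockout 1 below 4 of the 5 controls, so the groups overlapped. Means were 2.41 ± 1.34 and 4.65 ± 2.85 CPM, and the log2 fold change of 0.94 (SE 0.50, adjusted p = 0.231) did not pass. An interval of 2 SE ran from -0.06 to 1.93 on the log2 scale, which holds no change as well as a rise of the size seen in Otop1. Ucp1 passed in 0 of the 10 fits that omit a library. Without knockout 1 the log2 fold change was 1.19 (adjusted p = 0.065). Without knockout 2, its highest library, it was 0.56 (adjusted p = 0.460).

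**Figure D1:**
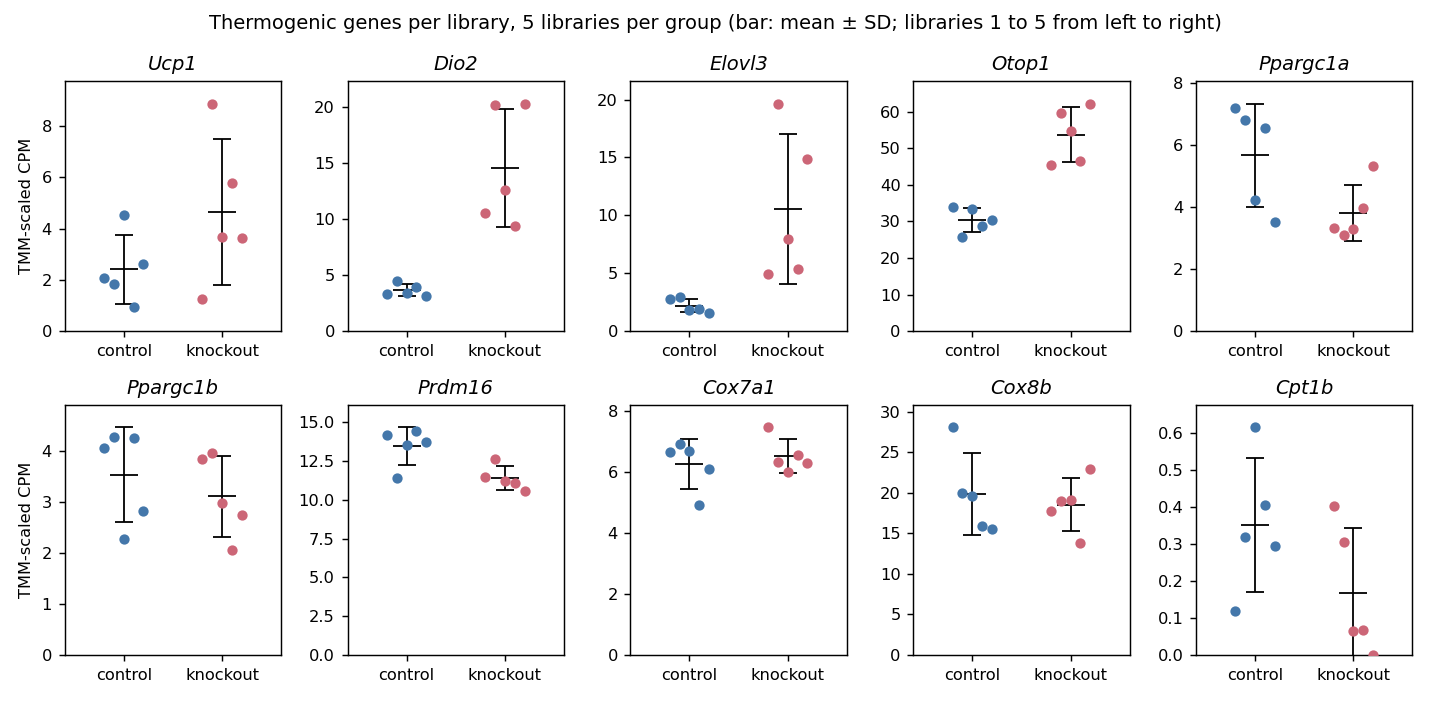
TMM-scaled CPM of the 10 thermogenic genes in the 5 control (blue) and 5 knockout (red) libraries, each panel with its own linear axis from 0, with group mean and SD in black. Dio2, Elovl3 and Otop1 separate the groups, with knockouts 2 and 5 highest, while the other 7 genes overlap.

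Among the regulators, Ppargc1a (ENSMUSG00000029167, chromosome 5, 51454250 to 51567726, minus strand) encodes PGC-1alpha, the cold-induced coactivator of mitochondrial biogenesis. Its controls held 7.20, 6.81, 4.24, 6.56 and 3.52 CPM and its knockouts 3.33, 3.10, 3.30, 3.98 and 5.34 CPM. Controls 1, 2 and 4 were above every knockout, whereas controls 3 and 5 lay within the knockout range. The log2 fold change was -0.57 (SE 0.22, adjusted p = 0.096). Without control 5 it was -0.702 and passed (adjusted p = 0.025), in a fit that called 10.8% of all genes lower. Of the 10 fits that omit a library, that was the only 1 in which Ppargc1a passed. Without control 1 its log2 fold change was -0.47 (adjusted p = 0.225). With no filter on low counts it also passed (-0.54, adjusted p = 0.034, 3.42% lower).

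Ppargc1b, for the related coactivator PGC-1beta, stood at 4.05, 4.27, 2.27, 4.26 and 2.81 CPM in controls and 3.85, 3.95, 2.97, 2.06 and 2.74 CPM in knockouts. As in Ppargc1a, controls 1, 2 and 4 were the high ones, but the knockouts covered most of the same range (log2 change -0.18, SE 0.22, adjusted p = 0.630). Prdm16 (ENSMUSG00000039410, chromosome 4, 154316125 to 154636873, minus strand), the zinc finger regulator that directs precursors towards brown and beige fate, held 14.2, 11.4, 13.5, 14.5 and 13.7 CPM in controls and 11.5, 12.6, 11.2, 11.1 and 10.5 CPM in knockouts. All controls except control 2 stood above all knockouts, and the log2 fold change of -0.24 (SE 0.090, adjusted p = 0.091) did not pass, in the full data or without any 1 library (adjusted p from 0.073 to 0.191).

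The last group of members encodes parts of mitochondria that muscle and brown fat share. Cox7a1 (ENSMUSG00000074218, chromosome 7, 30184144 to 30186078, plus strand) and Cox8b (ENSMUSG00000025488, chromosome 7, 140898945 to 140900446, minus strand) are the muscle and brown fat forms of cytochrome c oxidase subunits. Cpt1b (ENSMUSG00000078937, chromosome 15, 89416405 to 89425863, minus strand) is the form of carnitine palmitoyltransferase that admits fatty acids to mitochondria in muscle. Cox7a1 was nearly level, at 6.67, 6.94, 6.70, 4.93 and 6.10 CPM in controls and 7.47, 6.32, 6.00, 6.57 and 6.30 CPM in knockouts (log2 change 0.06, SE 0.12, adjusted p = 0.774, interval of 2 SE from -0.18 to 0.30). Cox8b was more variable, at 28.0, 20.0, 19.6, 15.9 and 15.5 CPM in controls and 17.8, 19.0, 19.1, 13.7 and 22.9 CPM in knockouts (log2 change -0.10, SE 0.17, adjusted p = 0.723, interval from -0.43 to 0.23). Cpt1b had 2, 5, 10, 6 and 5 counts in controls and 7, 5, 1, 1 and 0 counts in knockouts, too few to test. In GENCODE M21, 81.4% of its exonic bases are also covered by Gm44502 on the same strand. Gm44502 is not among the genes of the counts table. How the authors' counting treated reads from the shared bases is not known from the labels or headers.

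The widely expressed paralogs of these 3 genes were far more abundant. Per kilobase of exon, Cox7a2 stood at 140 CPM and Cox7a1 at 11.7 CPM in the controls, an 11.9-fold difference in level, and Cox8a stood 7.57-fold above Cox8b. Cpt1a, the liver form that white fat also uses, stood at 28.4 CPM per kilobase in the controls against 0.104 for Cpt1b. The Cpt1b level may lack reads from the bases shared with Gm44502, whose counting is not known. The log2 ratio of Cox7a1 to Cox7a2 within a library was -4.30 ± 0.131 in controls and -4.45 ± 0.195 in knockouts (two-sided exact permutation p = 0.175, n = 5 each, adjusted over the 3 ratios 0.262). That of Cox8b to Cox8a was -3.70 ± 0.376 and -3.89 ± 0.173 (exact permutation p = 0.373, adjusted 0.373). That of Cpt1b to Cpt1a, which rests on the few Cpt1b counts and an added 0.5 CPM, was -8.02 ± 0.297 and -8.45 ± 0.399 (exact permutation p = 0.087, adjusted 0.262). In all 3 ratios the groups overlapped, and the smallest p that 5 libraries against 5 allow is 0.0079.

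On the length scale the members spanned a wide range of levels. In controls Cox8b stood highest at 55.0 CPM per kilobase, above Cox7a1 at 11.7 and Otop1 at 8.84, whose control ranges overlapped each other. Next came Ucp1 at 1.47, Prdm16 at 1.44, Elovl3 at 1.12, Ppargc1b at 0.885, Ppargc1a at 0.860 and Dio2 at 0.635 CPM per kilobase, each with a control range that overlapped that of its neighbour in the order, and Cpt1b was last at 0.104. In knockouts Elovl3 reached 5.35 ± 3.26, Ucp1 2.84 ± 1.74 and Dio2 2.51 ± 0.906 CPM per kilobase, while Cox8b stayed first at 51.4 ± 9.10.

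**Figure D2:**
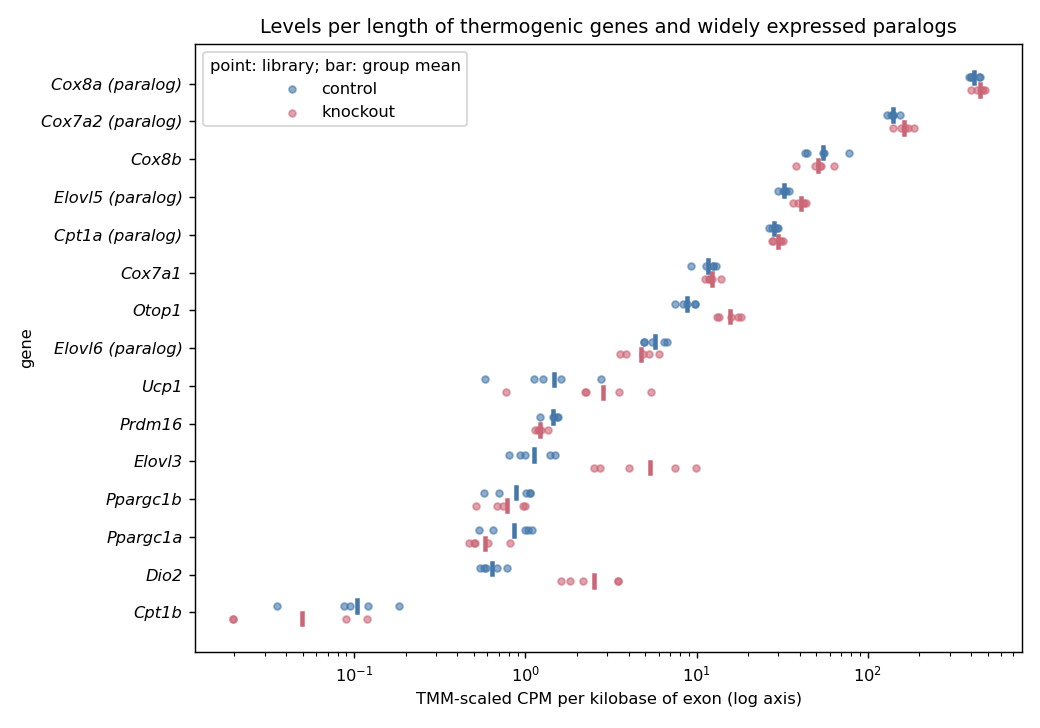
Levels per kilobase of exon on a log axis for the 10 members and 5 paralogs, with a point per library and a bar per group mean (the count of 0 for Cpt1b in knockout 5 cannot be drawn). The paralogs Cox8a, Cox7a2 and Cpt1a lie above Cox8b, Cox7a1 and Cpt1b. Dio2 and Elovl3 are the low members whose knockout points all leave the control range.

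Of the 17 paralogs of members, 11 were tested, of which 2 rose, 1 fell and 8 did not pass. Over all tested genes 5.73% rose and 7.14% fell. Mecom, the closest relative of Prdm16, fell from 33.2 ± 4.06 to 21.6 ± 2.64 CPM (log2 change -0.62, SE 0.10, adjusted p = 0.0043). Elovl5, an elongase of polyunsaturated fatty acids, rose from 115 ± 6.32 to 143 ± 9.61 CPM (0.32, adjusted p = 0.0097), and Cox7a2l, which takes part in joining respiratory complexes, from 132 ± 9.14 to 163 ± 15.7 CPM (0.30, adjusted p = 0.022). Cox7a2l did not pass when control 1, 2 or 4 was left out, reaching an adjusted p of 0.069. The remaining elongases Elovl6 (-0.27, adjusted p = 0.225), Elovl7 (0.36, adjusted p = 0.429) and Elovl1 (-0.00028, adjusted p = 0.998) did not pass, so the log2 fold change of Elovl3 was far from those of its relatives. Cox7a2 (0.22, adjusted p = 0.070), Cox8a (0.11, adjusted p = 0.318), Cpt1a (0.07, adjusted p = 0.499), Cpt1c (-0.14, adjusted p = 0.599) and the coactivator gene Pprc1 (-0.20, adjusted p = 0.432) did not pass either.

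A further 64 genes of the thermogenic pathway were listed by role, and 58 were tested. Of these 4 rose, 6 fell and 48 did not pass, with a median log2 fold change of 0.02. Both shares lie near the 5.73% and 7.14% of all genes or a little above. Without control 1, 2 rose and 2 fell, without control 2, 2 rose and 1 fell, without knockout 2, 2 fell, and without control 5, 7 rose. The calls over all genes moved as well, from 912 higher and 1137 lower in the full data. They were 265 higher and 380 lower without control 1, and 270 and 377 without control 2. Without knockout 2, 531 were lower, and without control 5, 1366 were higher.

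In the signal input, 10 genes of adrenergic, cyclic AMP and thyroid hormone signalling, 1 rose and 1 fell (5.73% and 7.14% of all tested genes). Adcy3, an adenylyl cyclase that makes cyclic AMP, rose from 30.1 ± 0.908 to 35.8 ± 2.39 CPM (log2 change 0.25, adjusted p = 0.021), a call lost without control 1, 2 or 4. Of its exonic bases 22.1% are shared with another gene. Thra, the thyroid hormone receptor alpha that binds the hormone Dio2 activates, fell from 52.5 ± 1.76 to 44.3 ± 1.98 CPM (-0.24, SE 0.056, adjusted p = 0.017), with no overlap between groups and a call lost without control 2 (adjusted p = 0.052) or with no filter on low counts (0.081). The protein kinase A subunit gene Prkaca (0.19, adjusted p = 0.136) did not pass. Adrb3, the beta-adrenergic receptor of fat cells, held 76.3, 66.5, 17.1, 24.5 and 17.99 CPM in controls and 9.88, 16.2, 17.0, 9.09 and 18.6 CPM in knockouts. Controls 1 and 2 stood far above the rest and controls 3 and 5 within the knockout range. The log2 fold change of -1.52 (SE 0.52, adjusted p = 0.089) did not pass here. It passed in DESeq2 (adjusted p = 0.026) and in edgeR without robust dispersion estimates (0.036).

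Of 13 transcriptional activators of the programme, 0 rose and 1 fell by edgeR, against 5.73% and 7.14% of all tested genes. Of the 13, 3 had an unadjusted p below 0.05 (30.6% of all tested genes). Ebf2, which opens brown fat enhancers to PPARgamma, fell from 33.3 ± 3.97 to 25.3 ± 2.77 CPM (-0.39, SE 0.096, adjusted p = 0.021). That call did not hold without control 1 or 2, nor without knockout 2 or 5, where adjusted p reached 0.064. The estrogen-related receptor gene Esrra (0.27, adjusted p = 0.067), the mitochondrial transcription factor gene Tfam (0.18, adjusted p = 0.092) and Ppara, for a receptor of fatty acids (-0.28, adjusted p = 0.212), did not pass. Of 8 repressors, Ncor1, the nuclear receptor corepressor gene, fell from 251 ± 26.6 to 209 ± 8.41 CPM (-0.27, adjusted p = 0.034), and did not pass without control 1 or 2 or knockout 2, 3 or 5. Zfp423, which holds adipocytes in a white state, stood at 0.24 (adjusted p = 0.068), and the corepressor genes Lcor at -0.23 (adjusted p = 0.159) and Nrip1 at -0.28 (adjusted p = 0.205).

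Of 17 other brown and beige markers 13 were tested, of which 1 rose and 2 fell (5.73% and 7.14% of all tested genes). Cidea, a lipid droplet protein gene that marks brown and beige fat, fell from 13.5 ± 4.00 to 6.23 ± 2.36 CPM (-1.12, SE 0.28, adjusted p = 0.029), opposite in direction to Dio2 and Elovl3. It passed in 4 of the 10 fits that omit a library, and failed without control 1 or 2 or any of knockouts 1 to 4, where adjusted p reached 0.079, and with no filter on low counts (0.059). Nrg4, whose product is a growth factor secreted by brown fat, fell from 77.7 ± 14.6 to 52.9 ± 8.24 CPM (-0.56, adjusted p = 0.025, lost without control 1 or 2 or knockout 2 or 4). Tnfrsf9 rose from 0.540 ± 0.222 to 1.37 ± 0.372 CPM (1.33, SE 0.30, adjusted p = 0.017, lost without control 1 or 2). It has been used as a beige marker and also encodes a costimulatory receptor of activated T cells. Of 7 T cell markers 2 rose (5.73% of all tested genes). The 7 summed to 10.3 to 22.1 CPM in controls against 14.8 to 102 CPM in knockouts. Knockout 1 held the 102 CPM, and knockouts 2 to 5 held 14.8, 29.7, 27.7 and 29.8 CPM. The part of T cells in the rise of Tnfrsf9 was not tested. Lhx8 (0.75, adjusted p = 0.084), Hoxc9 (0.23, adjusted p = 0.252) and Fgf21 (0.56, adjusted p = 0.298) did not pass.

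Heat can also be made without UCP1, by cycles that spend ATP, and 9 of 11 genes of that list were tested. Gk, the glycerol kinase gene of the triglyceride cycle, rose 1.92-fold from 37.1 ± 1.95 to 71.0 ± 17.8 CPM (log2 change 0.94, SE 0.14, adjusted p = 0.0036), with knockouts 2 and 5 highest as in Dio2, Elovl3 and Otop1. Gamt, which completes creatine synthesis, rose from 30.2 ± 2.002 to 38.8 ± 2.63 CPM (0.36, adjusted p = 0.0086), and Ryr2, a calcium release channel, fell from 27.6 ± 2.35 to 19.6 ± 3.33 CPM (-0.49, adjusted p = 0.015). These 3 were called in all 10 fits without 1 library. Pm20d1, whose product makes uncoupling N-acyl amino acids (0.52, adjusted p = 0.080), the calcium pump gene Atp2a2 (0.10, adjusted p = 0.308) and the creatine kinase gene Ckb (0.13, adjusted p = 0.396) did not pass. Of the 5 relatives of Ucp1, 0 changed by edgeR (12.9% of all tested genes) and 2 had an unadjusted p below 0.05 (30.6%). Ucp2 stood at 128 ± 16.1 and 148 ± 14.6 CPM (adjusted p = 0.117), Ucp3 at 35.6 ± 8.37 and 30.7 ± 4.48 CPM (adjusted p = 0.363) and Slc25a27 at -0.39 on the log2 scale (adjusted p = 0.162).

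Some listed genes that did not pass here passed under another setting. By DESeq2 these were Esrra (adjusted p = 0.040), Zfp423 (0.046), Lhx8 (0.027) and Cox7a2 (0.038), beside Adrb3. With no filter on low counts in edgeR, Esrra (0.019), Zfp423 (0.015), Lhx8 (2.7e-04), Pm20d1 (0.022), Ucp2 (0.033) and Cox7a2 (0.029) passed. Without the 3 libraries richest in muscle RNA, Zfp423 (0.043), Lcor (0.031) and Pm20d1 (0.0099) did. When 1 library was omitted, Lhx8 and Lcor passed without control 5, Tfam and Ucp2 without control 3, Esrra and Cox7a2 without knockout 4, Zfp423 without either control 5 or knockout 4, and Pm20d1 without either control 5 or knockout 1.

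**Figure D3:**
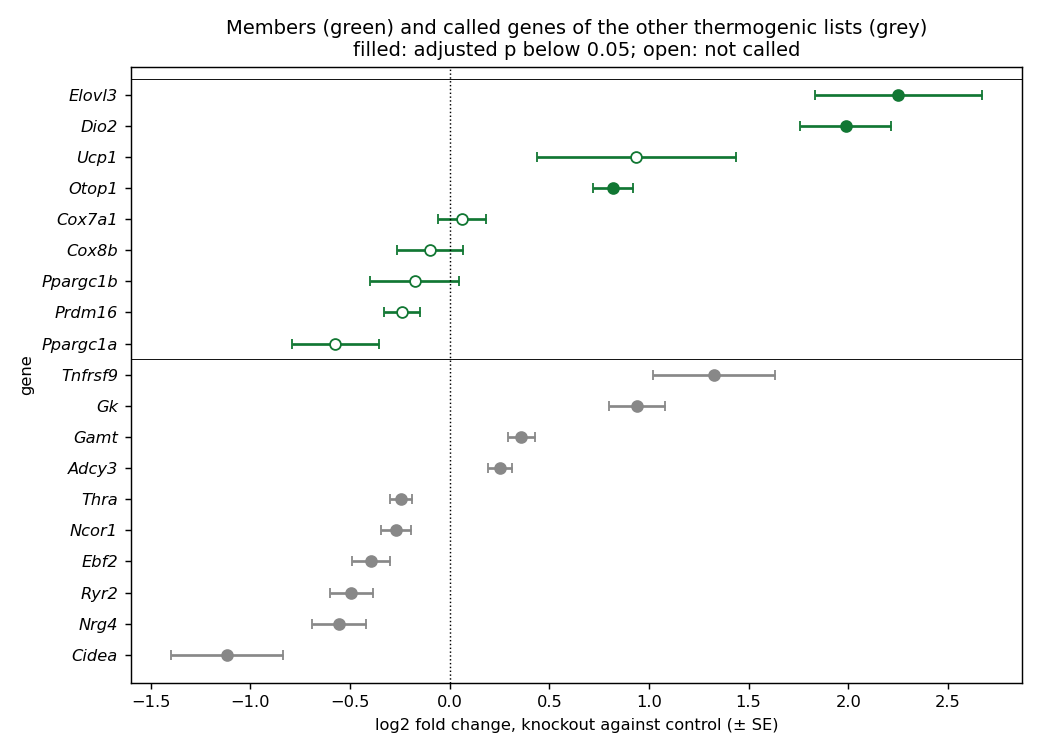
Log2 fold change with SE, knockout against control, for the 9 tested members (green) and the 10 called genes of the other thermogenic lists (grey), filled where the adjusted p is below 0.05. Elovl3, Dio2 and Otop1 are the called members, all to the right of 0, and the called genes of the other lists lie on both sides.

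A difference between libraries that runs alongside genotype touches these results. The mean log2 CPM of 786 tested loci that GENCODE M21 types as sense intronic or TEC (loci that await experimental support), called here the intronic-type score, was 1.08, 1.27, 0.727, 1.20 and 0.382 in control 1 to 5. In knockout 1 to 5 it was 0.441, 0.220, 0.464, 0.363 and 0.0562 (exact permutation p = 0.024, n = 5 each). Controls 1, 2 and 4 were the high libraries and control 5 lay within the knockout range. The same 3 controls held the highest Ppargc1a and Ppargc1b values, and knockouts 1 and 2 came close to them in Ppargc1b (3.85 and 3.95 CPM). Control 5, whose score was below those of knockouts 1 and 3, held 3.16, 1.58 and 30.3 CPM of Dio2, Elovl3 and Otop1. Within the knockouts the lowest scores were those of knockouts 2 and 5, which held the most Dio2, Elovl3 and Otop1. The cause of these patterns was not tested.

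With this score as a covariate in the edgeR fit, 0.333% of all tested genes passed (0.0753% higher and 0.257% lower) and 0 members did. Dio2 then had a log2 fold change of 1.84 (adjusted p = 0.160), Elovl3 2.02 (0.481), Otop1 0.62 (0.165), Ucp1 0.03 (0.993), Ppargc1a -0.07 (0.966) and Ppargc1b 0.33 (0.759). The unadjusted p of the first 3 were 0.0013, 0.039 and 0.0014. The fold changes of Dio2, Elovl3 and Otop1 moved by less than 1.5 times, those of Ucp1 and Ppargc1a came close to 0, and that of Ppargc1b changed sign. The score and genotype overlap in only part of their range, and how far they share a source cannot be told apart in this design. All 10 called pathway genes lost their call in that fit as well, as did the paralogs Mecom (-0.35, adjusted p = 0.398), Elovl5 (0.26, 0.398) and Cox7a2l (0.14, 0.649).

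**Figure D4:**
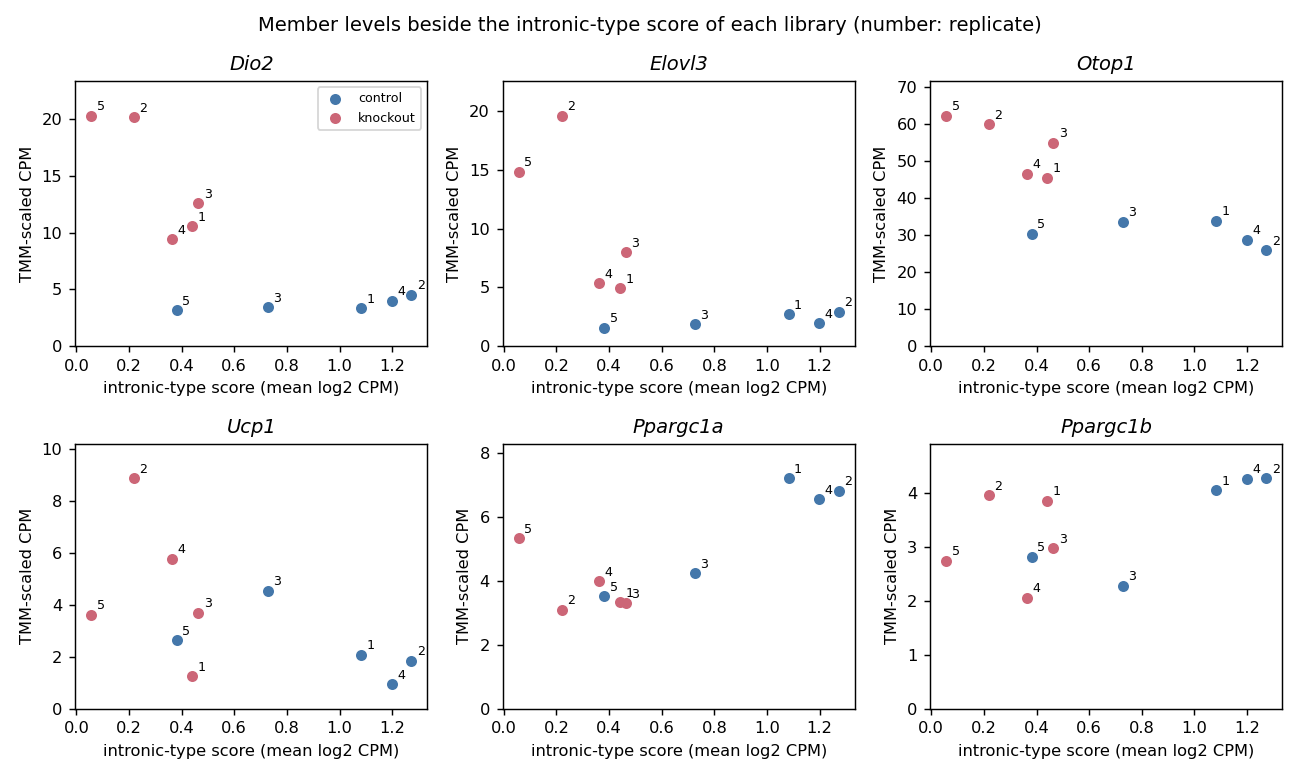
Member levels (TMM-scaled CPM, linear axis from 0) against the intronic-type score of the same library, controls blue and knockouts red, numbered by replicate. Control 5 has a score within the knockout range and control levels of Dio2, Elovl3 and Otop1. Ppargc1a is high only in controls 1, 2 and 4 and, less so, in knockout 5.

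Skeletal muscle RNA also differed between libraries, which matters for Cox7a1, Cox8b and Cpt1b. Of the 17 skeletal muscle markers 13 were tested and 0 called (0 at an unadjusted p below 0.05). All 13 had a log2 fold change above 0, from 0.14 to 1.77 (median 1.28). The 17 summed to 74.4 to 655 CPM in controls against 81.2 to 918 CPM in knockouts, highest in control 5, knockout 1 and knockout 3. In those 3 libraries Cox7a1 stood at 6.10, 7.47 and 6.00 CPM and Cox8b at 15.5, 17.8 and 19.1 CPM, within the range of the other 7 libraries except for Cox7a1 in knockout 1, which was the highest of all 10. Cpt1b had 5, 7 and 1 counts there. The muscle marker Tnnc2, 74% of whose exonic bases overlap Ube2c on the opposite strand, was at 0 counts in all 10 libraries. Leaving those 3 libraries out (10.7% of all genes then higher), or taking a muscle score as a covariate (2.27% higher), left Dio2, Elovl3 and Otop1 called. With that covariate Cidea (adjusted p = 0.078), Nrg4 (0.069), Tnfrsf9 (0.057), Ncor1 (0.090) and Cox7a2l (0.0501) did not pass. Without the 3 libraries Cidea (0.169) and Ncor1 (0.077) did not. Of 9 mature adipocyte markers, 1 rose and 2 fell, against 5.73% and 7.14% of all tested genes. Their sum lay between 23236 and 29584 CPM in controls and between 25257 and 34160 CPM in knockouts. Of 5 endothelial markers 4 fell, against 7.14% of all tested genes. Their sums (799 to 997 CPM in controls, 653 to 747 CPM in knockouts) did not overlap. Every knockout lay below every control in 4.45% of all tested genes. Of 5 B cell markers 0 were called by edgeR and 5 had an unadjusted p below 0.05, with sums of 6.05 to 18.9 and 11.0 to 286 CPM, highest in knockout 1. The part of these cell types in the results was not tested. Of the 4 tested smooth muscle markers 0 were called by edgeR (1 at an unadjusted p below 0.05) and sums overlapped (204 to 417 and 224 to 286 CPM), and cardiac markers, with Myl7 at 0 counts in all libraries, and epithelial markers summed to at most 1.83 and 1.29 CPM. In bulk tissue, fewer cells of a type and less RNA per cell cannot be told apart.

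Pattern likeness was described over the 10 libraries after centring each group on its own mean, with Pearson's r and no test. Among members the closest pair was Dio2 and Elovl3 (r = 0.916), followed by Elovl3 and Otop1 (0.614) and Cox8b and Otop1 (0.600), and the least alike were Ucp1 and Ppargc1b (-0.517). All these values share the same libraries, and those of Dio2 and Elovl3 rest mainly on the height of knockouts 2 and 5. Over 12170 other expressed genes, the closest to Dio2 were Coa7 (0.951), Chid1 (0.942) and Coq3 (0.939), and the closest to Elovl3 were Eci3 (0.958), Pla2g6 (0.928) and Vwa8 (0.928). Ucp1 was most like Lcmt1 (0.943), Setd7 (0.928) and Parva (0.908), and Otop1 most like Art3 (0.972), Uxt (0.962) and Txndc12 (0.954). Ppargc1a (Cdc73, 0.898) and Prdm16 (Ap3s2, 0.886) had 0 genes at r of 0.9 or more, while Ppargc1b was closest to Usp35 (0.938), Cox7a1 to Fiz1 (0.923) and Cox8b to Afg1l (0.968). With so many genes and 10 libraries, r near these values also occurs with the opposite sign, as between Dio2 and Got2 (-0.952).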

How the data were processed

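Ribosome-depleted total RNA was sequenced with a strand-marking kit, per the labels' protocols. The authors deposited whole-number read counts per gene, 1 column per library. Per the submitters' processing notes, the tools were STAR 2.5.2b, featureCounts 1.5.1 and DESeq2 1.16.0, with genome GRCm38. Annotation release, strand setting and treatment of shared reads: not given in the sources used here, so overlapping genes may share reads. Symbols and lengths came from GENCODE M21, and 147 identifiers had none. The 10 libraries totalled 14032866 to 17782073 counts; the floor of 3 counts covers counting error only. The 20 within-group pairs differed beyond sampling noise (chi-square per degree of freedom 7.14 to 29.4).

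Genes passing filterByExpr (15927, by group) were scaled by TMM and compared with edgeR 4.0.16 (R 4.3.3), two-sided quasi-likelihood test with robust dispersions, Benjamini-Hochberg adjusted, called below 0.05; SE is the log2 fold change divided by the square root of F, and carries the spread between libraries. Ratios used exact permutation over all splits of 5 against 5. Levels per kilobase used the union of exons. The fit was tested on simulated data. Alternatives were DESeq2 1.42.0, limma-voom (limma 3.58.1), DESeq2 size factors, no TMM, no filter, each library left out and a muscle score as covariate. The non-robust fit, the intronic-type covariate and leaving out 3 muscle-rich libraries were added after seeing the data. Named genes were all members and paralogs, and from each list all called genes and up to 3 of smallest p among the rest; for markers, summed CPM; and for likeness the 3 closest genes, of which some are given. One gene that this rule names is not reported here. Members and lists were chosen with earlier results of these data known.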

Additional observations from a re-analysis of the deposited data

Results flagged for a closer look

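In 4 of 106 groups of 5 libraries checked for the named genes and ratios, 1 library stood apart from the other 4 by more than the 95% limit of Dixon's test, which chance alone gives in about 1 in 20 groups. Adcy3 was 40.1 CPM in knockout 4, and the next knockout was at 35.1 CPM. Ppara was 11.5 CPM in control 1, next to 7.97 CPM. Ucp2 was 155 CPM in control 3, next to 127 CPM. Mecom was 26.1 CPM in control 5, the lowest control, next to 34.1 CPM, and that value still lay above its highest knockout. None of the 10 thermogenic members was among them.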

How the results depend on the processing

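The 3 higher members, Dio2, Elovl3 and Otop1, were called under every alternative run, leaving out each library included, except the fit with the intronic-type covariate, where 0 were called. The number of lower members was 1 (Ppargc1a) with no filter on low counts (log2 fold change -0.54, adjusted p = 0.034) and between 0 and 1 when 1 library was left out, since Ppargc1a passed without control 5. Over all genes, 912 higher and 1137 lower calls became 265 to 1366 and 377 to 1745 with 1 library left out, lowest without control 1 (265 and 380) or control 2 (270 and 377) and highest without control 5; control 4, knockout 2 and knockout 5 also moved them by over 1.5 times. They became 1396 higher by DESeq2, 1607 higher with no filter, 362 higher and 368 lower with the muscle score as a covariate, 1748 and 1821 without the 3 muscle-rich libraries, and 12 and 41 with the intronic-type score. For the other pathway genes, 4 higher and 6 lower became 2 to 7 and 1 to 7 with 1 library left out, 7 higher by DESeq2, 9 higher with no filter, 7 higher without the muscle-rich libraries, 3 lower with the muscle score, and 0 and 0 with the intronic-type score. The isoform ratios kept their direction and did not pass in any alternative. With the longest transcript as length, the knockout level of Prdm16 was 1.33 instead of 1.22 CPM per kilobase and that of Cox7a1 13.5 instead of 12.2. Directions changed only for genes that did not pass. With the intronic-type score these were Ppargc1b (0.33), Lcor (0.16), Cpt1a (-0.039), Cpt1c (0.054) and Elovl1 (0.11), and with the muscle score Cox8b (0.015). Elovl1 was also 0.019 by DESeq2, 0.0041 with DESeq2 size factors, 0.000345 by limma-voom and 0.027 with no filter. With 1 library left out, Cox7a1 ran from -0.012 to 0.10, Cox8b from -0.18 to 0.060 and Elovl1 from -0.020 to 0.039. The causes were not tested. At 0 to 10 counts per library, a difference in Cpt1b was not detectable. How reads from the bases it shares with Gm44502 were counted is not known. No paired analysis was possible because the replicate numbers were given in record order and the titles of the groups share no number.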
